A study of Drosophila melanogaster with 25 samples.

Results

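The comparison described here asks whether the intracellular domain of Fat changed RNA levels differently in 2 larval tissues of Drosophila melanogaster. It uses 11 of the 25 RNA-seq libraries of the series, chosen by tissue and genotype. FtICD animals came from a ubi-Gal4; UAS-FtICD-3xFLAG stock, in which a ubiquitous driver expresses the FLAG-tagged intracellular domain, and w1118 animals served as wild type. The 4 groups were third-instar eye-brain complexes of FtICD (3 libraries) and w1118 (2 libraries), and third-instar wing discs of FtICD (3) and w1118 (3). All animals were raised at 25 C, and all 11 libraries were labelled as NovaSeq 6000 runs. The stock and w1118 differ in more than the expressed domain, since the stock carries a driver and a transgene, and no library of the driver or the transgene alone was used here. The number of animals per library is not given in the sources used here, so p-values measure the spread between libraries.

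Fat is a giant cadherin of the cell surface that binds Dachsous on neighbouring cells. It restrains growth through the Hippo pathway, which keeps the transcriptional co-activator Yorkie out of the nucleus, and it orients planar cell polarity. The wing disc is an epithelium that forms the adult wing and the dorsal thorax, and the eye-brain complex joins the eye-antennal discs to the larval brain. The series' title names a cleaved nuclear fragment of Fat that regulates genes, and FtICD is the domain from which such a fragment would come.

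Levels are given as CPM, counts scaled to a common library size, with trimmed-mean (TMM) factors, in replicate order. The effect of FtICD in a tissue is the log2 fold change of FtICD over wild type, and the tissue difference is the eye-brain effect minus the wing effect, each ± its standard error. A gene was called at a Benjamini-Hochberg adjusted p below 0.05 in edgeR's quasi-likelihood F test over 11440 genes. Library totals ran from 30361047 to 54256669 counts. Markers of both tissues followed the labels: the sum of 7 neuronal markers was 848 to 1060 CPM in eye-brain complexes and 20.3 to 39.2 CPM in wing discs, and that of 7 wing disc markers was 112 to 156 and 558 to 820 CPM. FtICD eye-brain replicate 3 stood apart. Ribosomal RNA was 4.40% of its counts against 9.83 to 15.07% elsewhere. The sum of 5 fat body markers was 4300 CPM in it against 7.86 to 822 CPM elsewhere. That of 7 salivary gland markers was 10100 CPM against 3.30 to 62.8 CPM. The count of called genes and some single genes are therefore also given without it, and the other main results use all 11 libraries. Hsc70-4, a constitutive chaperone, was at 84.7, 54 and 3438 CPM in the FtICD eye-brain libraries, and its tissue difference was 5.74 ± 2.22 (adjusted p = 0.17) with replicate 3 and 1.59 ± 1.06 (adjusted p = 0.43) without it. The male-enriched RNA roX2 was at 0.173, 37.4 and 53.4 CPM in the same 3 libraries, and neither roX2 nor roX1, whose exons overlap ec, was called (adjusted p = 0.59 and 0.63).

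Counts assigned to ft (FBgn0001075, chr2L:4198404-4221796, minus strand of dm6) rose in both tissues. Its level was 4482, 4517 and 4948 CPM in FtICD eye-brain complexes against 140.1 and 150.4 in wild type. In wing discs it was 8437, 9256 and 7672 CPM against 314, 350.0 and 293. The groups were far apart in each tissue, and the tissue difference was 0.27 ± 0.15 (adjusted p = 0.34). Reads of the transgene and of the endogenous gene were not told apart in these counts.

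The FtICD effect differed between the tissues for 865 genes, 7.56% of those tested. The effect was higher in eye-brain complexes for 637 genes (5.57%, called positive below) and lower there for 228 (1.99%, called negative). The median difference over all genes tested was -0.05. In whole tissues, fewer cells of a type and less RNA per cell cannot be told apart. FtICD changed 712 genes in eye-brain complexes (6.22%), 431 higher (3.77%) and 281 lower (2.46%), and 1708 in wing discs (14.9%), 742 higher (6.49%) and 966 lower (8.44%). Without FtICD eye-brain replicate 3, 875 of 11270 genes (7.76%) were called, and 766 of the 865 kept their call and direction. The counts leaned on both wild-type eye-brain libraries: 467 genes were called without replicate 1 and 326 without replicate 2, where the lone library left was assumed to vary like the other groups.

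**Figure D1:**
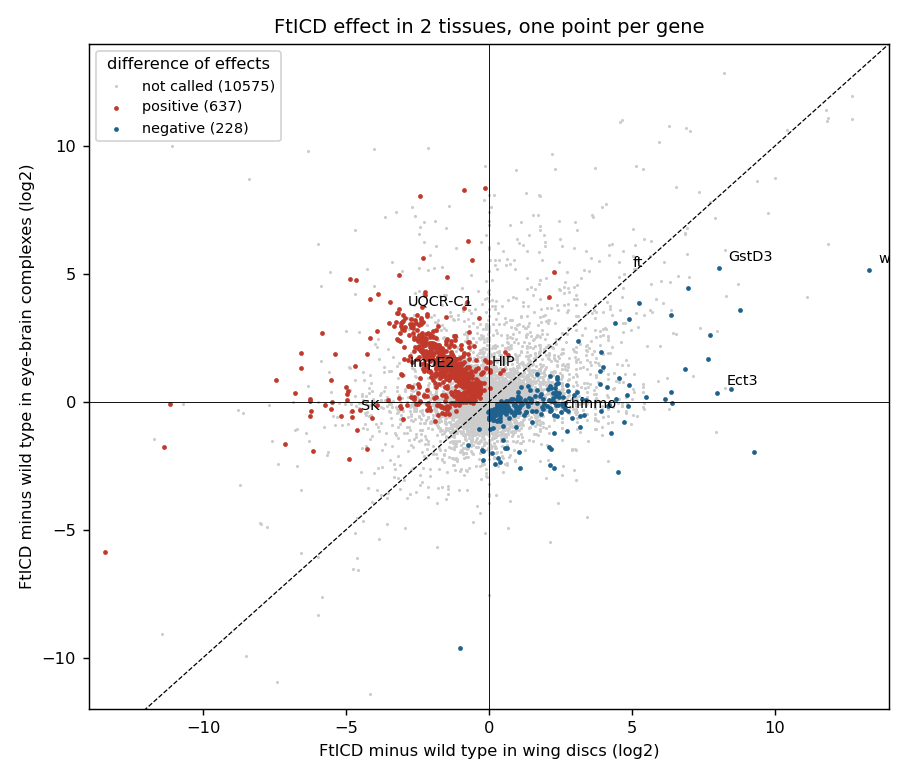
Each point is a gene, placed by the log2 effect of FtICD in wing discs (horizontal) and in eye-brain complexes (vertical). The 637 positive genes (red) lie mostly where the eye-brain effect is above 0 and the wing effect below 0, and the 228 negative genes (blue) mostly at wing effects above 0. The dashed line marks equal effects.

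Opposite signs marked most positive genes. For 573 of the 637 (90.0%) the eye-brain effect was above 0 and the wing effect below 0, as held for 17.4% of genes not called, a pattern that a positive difference favours by its definition. For 169 both tissue tests passed in these directions. A further 310 fell in wing discs without passing the eye-brain test, 52 rose in eye-brain complexes without passing the wing test, 98 passed neither, and 8 moved the same way in both tissues by both tests. Of the negative genes, 147 rose in wing discs only by the tests, 38 fell in eye-brain complexes only, 20 rose in both but more in wing discs, 4 fell in eye-brain and rose in wing, and 18 passed neither test. Passing in 1 tissue alone is no separate evidence of a difference, and each of these genes was called by the test of the difference itself. Among genes named below, UQCR-C2, h, nab, Gapdh1 and GstS1 passed the eye-brain test only with FtICD eye-brain replicate 3. Without it their adjusted p in that test was 0.062, 0.052, 0.066, 0.053 and 0.081.

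The genes with opposite effects included parts of basic cell machinery. Yorkie itself (yki, FBgn0034970, chr2R:24065975-24068485, minus strand), the co-activator at the end of the Hippo pathway, was at 72.3, 25.2 and 66.7 CPM in FtICD eye-brain complexes against 8.03 and 4.44 in wild type. In wing discs it was at 11.9, 7.54 and 7.36 CPM against 102, 91.2 and 28. Neither pair of groups overlapped, and the order was reversed between the tissues. The effects were 3.13 ± 0.66 (adjusted p = 0.025) and -3.04 ± 0.55 (adjusted p = 0.0057), and the tissue difference was 6.17 ± 0.87 (adjusted p = 0.0033).

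RpL18 (FBgn0035753, chr3L:7240203-7241351, minus strand), a protein of the large ribosomal subunit, was at 938, 749 and 826 CPM in FtICD eye-brain complexes against 137 and 61.6 in wild type. The wing values were 223, 67 and 47.9 CPM against 1117, 1098 and 598. Again the 2 tissues moved in opposite directions, with a difference of 6.13 ± 0.90 (adjusted p = 0.0039). RpL4 and RpLP1 differed by 4.21 ± 0.88 and 2.94 ± 0.60, calls that were lost without wild-type eye-brain replicate 2 (adjusted p = 0.11 and 0.1). The eye-brain rises of RpL4 and RpLP1 did not pass the eye-brain test (adjusted p = 0.14 and 0.090). Over the ribosomal protein genes the positive share was near that of all genes tested. Of 89 tested 7 were positive (7.87%, against 5.57%) and 0 negative (against 1.99%). Of the 89 differences, 67 lay below 0, with a median of -0.29.

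In the respiratory chain, too, a few genes had wide differences, and the shares called were near those of all genes tested. UQCR-C1 (FBgn0038271, chr3R:14890231-14892387, plus strand), a core subunit of complex III, was at 402, 162 and 365 CPM in FtICD eye-brain complexes and 34.2 and 21.6 in wild type. In wing discs it was at 50.3, 26.3 and 17.9 and 391, 332 and 125 CPM. Its tissue difference of 6.64 ± 0.87 (adjusted p = 0.0027) held without FtICD eye-brain replicate 3, at 6.46 ± 0.88 (adjusted p = 0.0036). UQCR-C2, its partner in complex III, differed by 9.38 ± 1.53, and ND-18 of complex I by 6.75 ± 1.32. Both calls were lost without wild-type eye-brain replicate 2 (adjusted p = 0.062 and 0.11), and that of ND-18 also without replicate 1 (adjusted p = 0.078). With limma voom and library weights they were 9.04 ± 3.07 and 6.26 ± 2.54, not called (adjusted p = 0.099 and 0.16). The eye-brain rise of ND-18 did not pass the eye-brain test (adjusted p = 0.067). Of the tested genes of complexes II to V 3 of 37 were positive (8.11%), of complex I 1 of 36 (2.78%), and none of either was negative. Over all genes tested 5.57% were positive and 1.99% negative. None of the 73 mitochondrial ribosomal protein genes was called. The 13 mitochondrially encoded genes all lay below 0 with a median of -1.32, none of them called, and their share of all counts was 0.527% in FtICD eye-brain replicate 3 against 1.08 to 2.02% in the other libraries.

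Several other genes had opposite effects in the tissues. The tubulin betaTub97EF (FBgn0003890, chr3R:27967008-27988384, minus strand) was at 61.9, 60 and 61.4 CPM in FtICD eye-brain complexes against 13.7 and 9.68, and at 5.18, 2.12 and 2.72 CPM in FtICD wing discs against 19.7, 35.4 and 32.3. Its tissue difference was 5.51 ± 0.52 (adjusted p = 8.7e-04). Pcyt1, an enzyme of phosphatidylcholine synthesis, differed by 4.36 ± 0.44, and dock, an adaptor that acts in axon guidance, by 3.11 ± 0.29. Cka, a scaffold of the STRIPAK complex, was at 337, 331 and 384 CPM against 121 and 109 in eye-brain complexes and at 117, 81.2 and 60.8 against 245, 249.5 and 232 in wing discs; its exons overlap CG7367. Its difference was 3.10 ± 0.30 (adjusted p = 9.6e-04). The RNA-binding protein rin, of stress granules, was at 862, 781 and 868 CPM against 433 and 438 and at 440.4, 355 and 436 against 1112, 1241 and 835, a difference of 2.32 ± 0.22. The synaptic scaffold gene gukh differed by 2.79 ± 0.24, eIF3a, of translation initiation, by 6.17 ± 0.79, and the topoisomerase Top3beta by 6.21 ± 0.85. For these 8 genes the FtICD and wild-type libraries did not overlap in either tissue, as held for 500 of the 637 positive genes and for 18.5% of all genes tested. Rab27, a small GTPase of vesicle traffic, was at 19, 2.55 and 20.2 CPM against 0.659 and 0.227 in eye-brain complexes and 1.27, 0.984 and 0.284 against 12.3, 8.53 and 1.88 in wing discs. Its difference of 8.11 ± 1.56 was lost without wild-type eye-brain replicate 1 or 2 and with voom and library weights (adjusted p = 0.064, 0.1 and 0.19). HIP, a co-chaperone, combined a rise in eye-brain complexes with a small fall in wing discs: 309, 317 and 298 CPM against 138 and 141, and 290.4, 293 and 308 against 335, 357 and 353. Its difference of 1.37 ± 0.10 had the adjusted p 1.8e-04, and 3.9e-04 without replicate 3.

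**Figure D2:**
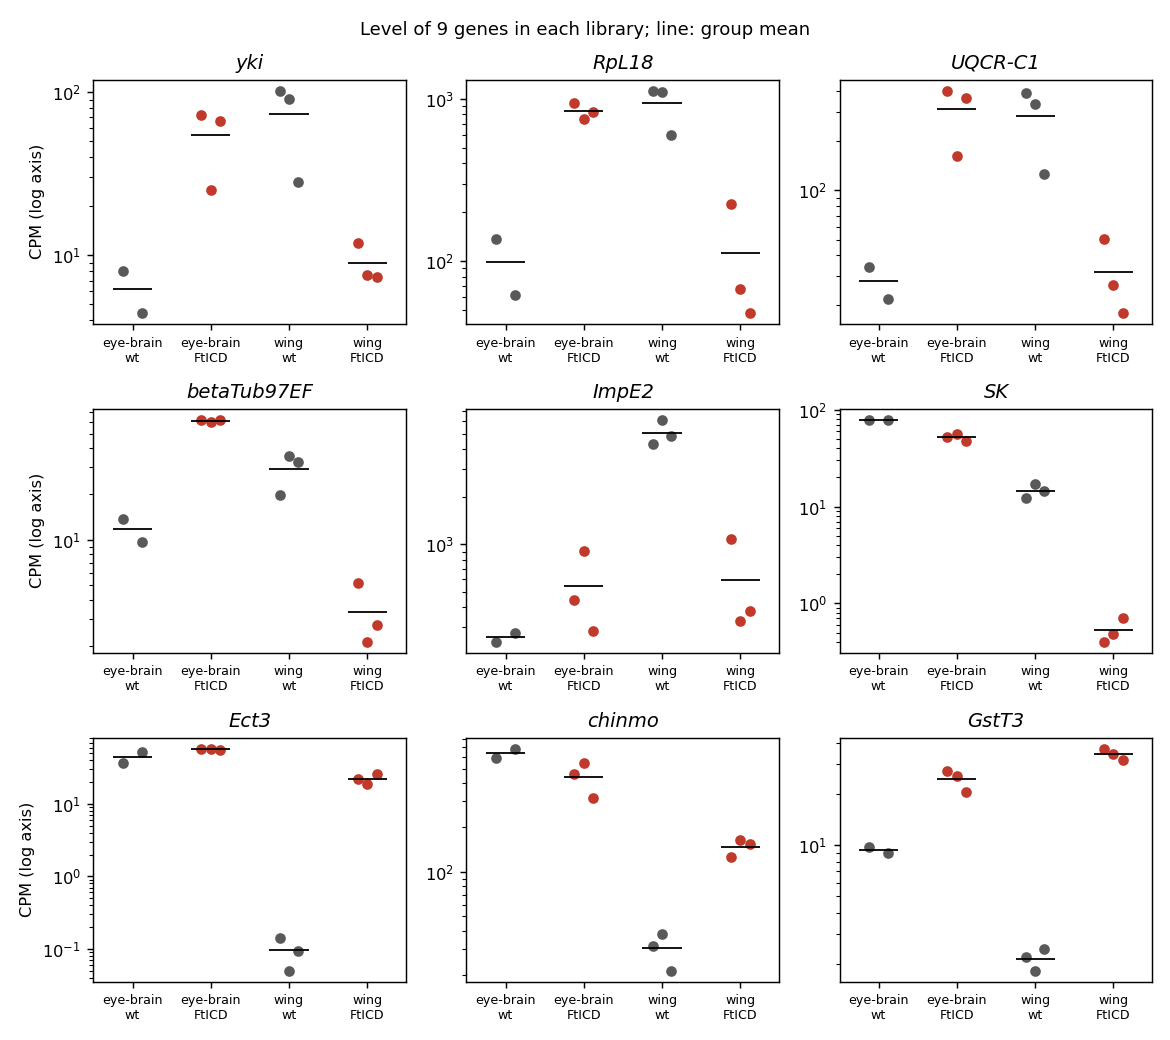
Levels of 9 genes in CPM on log axes, 1 point per library, with lines at the group means and points under 0.05 CPM drawn at 0.05. In the panels of yki, RpL18, UQCR-C1 and betaTub97EF the FtICD libraries (red) lie above wild type (grey) in eye-brain complexes and below it in wing discs. SK falls and Ect3, chinmo and GstT3 rise in wing discs.

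The low level of yki, UQCR-C1 and betaTub97EF in wild-type eye-brain libraries was not seen in the other eye-brain set of the series. That set, a separate table from a NovaSeq X Plus, holds 3 w1118 libraries and 3 of the null genotype ft fd5-5/ftX13, and none entered the choice of the genes. With all 25 libraries scaled together, yki was at 7.43 and 4.15 CPM in the wild-type eye-brain libraries of the FtICD set and at 41.7, 43.3 and 40.9 CPM in those of the ft null set. UQCR-C1 was at 31.5 and 20.1 and 320.0, 305 and 317 CPM, and betaTub97EF at 12.6 and 9.03 and 62.3, 46.6 and 46.9 CPM. The same genotype and tissue thus gave several-fold lower values in the FtICD set for each of the 3 genes. This did not hold for every gene above: RpL4 was at 638 and 274 and at 440, 398 and 432 CPM. Over the 637 positive genes the median level was 4.14 and 4.47 log2 CPM in the wild-type eye-brain libraries of the FtICD set and 6.24 to 6.25 in those of the ft null set. FtICD eye-brain libraries lay between, at 5.28 to 6.0, and wing discs at 5.04 to 5.58 in wild type and 3.56 to 4.27 in FtICD. Genes not called had 4.39 to 4.42 and 4.36 to 4.45 log2 CPM in the 2 wild-type eye-brain sets. Of the positive genes 42.2% were at least 4-fold lower in the wild-type eye-brain libraries of the FtICD set than in the other set, against 6.58% of all genes tested; both this gap and the tissue difference use these 2 libraries, so the share is a description. All genes with such a gap held 1.37 and 1.31% of the counts in these 2 libraries, and 1.25, 1.07 and 1.15% in FtICD wing discs. Their share was 3.62, 2.685 and 1.67% in wild-type wing discs and 3.37, 2.19 and 6.91% in FtICD eye-brain complexes. What lay behind these shares was not tested. The tables and sequencers differ between the sets, and their part in the result was not tested. With such genes left out before scaling, an alternative chosen after the data were seen, 563 of 10694 genes were called, 359 positive and 204 negative.

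**Figure D3:**
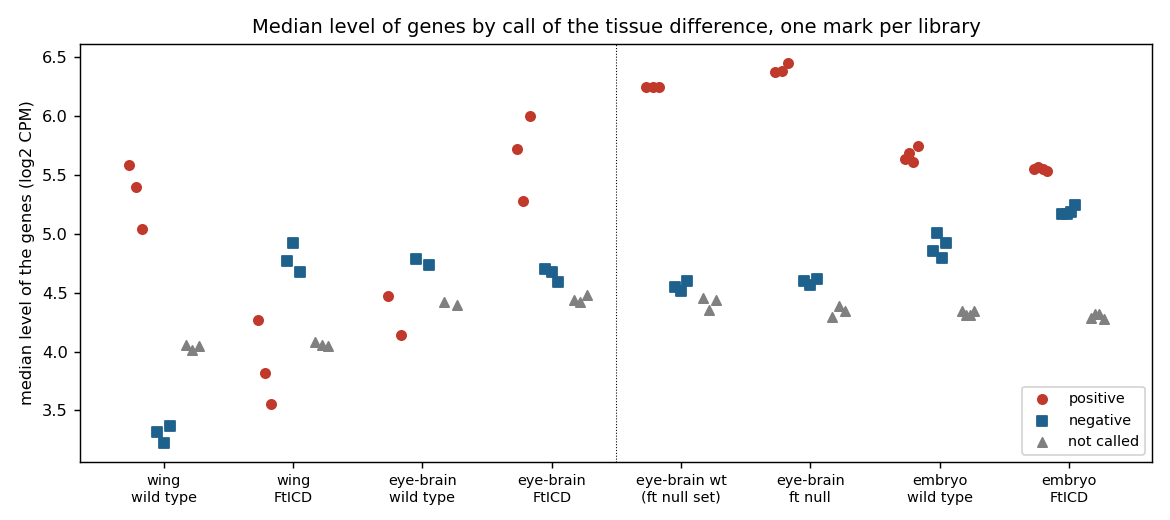
Median level in log2 CPM, 1 mark per library, of the 637 positive, 228 negative and 10575 uncalled genes, with all 25 libraries scaled together. The dotted line parts the 4 groups compared from the other 14 libraries, which did not enter the calls. The positive genes lie lowest in FtICD wing discs and in wild-type eye-brain complexes of the same set, the groups in which the call itself selects low levels.

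Positive genes as a group also differed from uncalled genes in transcript length, chromosome and level. Their longest annotated transcript had a median of 2956 bases and their longest 3′ UTR a median of 585 bases, against 1843 and 231 bases for genes not called. Of the 637, 162 (25.4%) lie on the X chromosome, which holds 16.2% of the genes tested. In negative genes these medians were 2208 and 315 bases, and 29 of 228 (12.7%) were on the X. The mean level over the 11 libraries had a median of 38.63 CPM in positive, 27.33 in negative and 21.95 in uncalled genes. The parts of transcript length and of level in the result were not tested.

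Transcription factors and patterning genes were among those with opposite effects. The repressor ttk was at 114.9, 110.2 and 137 CPM in FtICD eye-brain complexes against 64.3 and 52.8, and at 117, 87.9 and 86.4 CPM in FtICD wing discs against 298, 321 and 224. The groups separated in both tissues, with a difference of 2.58 ± 0.26 (adjusted p = 0.0011). The gene nab, a cofactor in wing patterning, differed by 4.18 ± 0.63, the hairy gene h by 3.06 ± 0.50 and the GATA cofactor ush, which overlaps lncRNA:CR46258, by 2.57 ± 0.40. Mof, the acetyltransferase of dosage compensation, differed by 2.46 ± 0.42 and the Notch pathway ligase mib1 by 3.36 ± 0.54, 2 calls lost without wild-type eye-brain replicate 2 (adjusted p = 0.056 and 0.051). Of 41 wing patterning genes tested 8 were positive and 1 negative (19.5 and 2.44%), against 5.57 and 1.99% of all genes tested. Of the 8 positive genes, 5 were at least 4-fold lower in wild-type eye-brain libraries of the FtICD set than in the ft null set. Nub, ara and inv were among these 5. With all libraries scaled together, inv was at 26.9, 31.6 and 30 CPM in w1118 eye-brain complexes of the ft null set. In wild-type wing discs it was at 35.4, 36.1 and 22 CPM on that scale, while nub was far higher in wing discs than in eye-brain complexes of either set. The POU factor nub was at 107, 66.8 and 64.6 CPM in FtICD wing discs against 279, 255 and 172, and at 8.4, 6.01 and 7.38 against 3.98 and 2.14 in eye-brain complexes. Its difference was 2.81 ± 0.44, that of the Iroquois gene ara 2.68 ± 0.43 and that of inv 2.68 ± 0.44, the last with an adjusted p of 0.051 without wild-type eye-brain replicate 2. The eye-brain rises of nub, ara and inv did not pass the eye-brain test (adjusted p = 0.063, 0.067 and 0.069). Of 35 retinal and eye patterning genes 5 were positive, ttk and h among them, and 0 negative (14.3% positive, against 5.57% of all genes tested).

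Part of the ecdysone response genes fell in wing discs. Ecdysone is the steroid that drives moulting and metamorphosis. Of 27 response genes tested 10 fell and 2 rose in wing discs, where 8.44% of all genes tested fell, while 2 rose and 0 fell in eye-brain complexes. In the tissue difference 4 were positive (14.8%, against 5.57% of all genes tested) and 0 negative (against 1.99%). ImpE2 (FBgn0001254, chr3L:3510974-3512681, minus strand), an ecdysone-inducible gene of disc eversion, was at 1087, 329 and 378 CPM in FtICD wing discs against 4311, 6130.5 and 4805. In eye-brain complexes it was at 446, 913 and 284 against 243 and 275. All wild-type wing libraries lay above all others, and the difference was 4.17 ± 0.80 (adjusted p = 0.012). ImpE1 was at 31.1, 28.6 and 40.2 CPM in FtICD wing discs against 130.2, 201 and 151 and differed by 2.50 ± 0.48. The nuclear receptor Hr3, whose exons overlap CG12912, held 0 counts in the FtICD wing libraries against 799 in wild type, at least 286-fold lower when the FtICD group is set to 3 counts. In eye-brain complexes it was at 2.4, 7.18 and 3.76 CPM against 4.33 and 5.12, groups that overlapped. Without wild-type eye-brain replicate 1 the adjusted p was 0.071 for ImpE2, 0.068 for ImpE1 and 0.082 for Hr3, and without replicate 2 it was 0.081 for ImpE2 and 0.092 for Hr3. The call of Hr3 was also lost with voom and library weights (adjusted p = 0.16). The receptor partner usp, which overlaps Actn, had opposite effects and differed by 3.68 ± 0.52. Of 15 ecdysone synthesis genes 4 were positive (26.7%, against 5.57% of all genes tested) and 0 negative. Of these nvd, named after its values were seen, held 2 counts in FtICD and 113 in wild-type wing discs, 91 of them in replicate 3. Ring gland markers summed to 37.6 CPM in that replicate and 5.96 to 10.4 CPM in the other wing libraries, and their part was not tested. Ptth, the neuropeptide that starts ecdysone synthesis, was at 8.8, 10.8 and 8.49 CPM against 9.06 and 10.6 in eye-brain complexes. In every wing library Ptth was under 1 CPM, with 11 counts in FtICD and 59 in wild type. Its difference of 2.40 ± 0.43 had an adjusted p of 0.055 without wild-type eye-brain replicate 1 and 0.057 in the fit to all 19 libraries of the FtICD table.

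Further genes fell in wing discs with little or no passing change in eye-brain complexes. SK (FBgn0029761, chrX:5340236-5405138, plus strand), a calcium-activated potassium channel, was at 0.402, 0.479 and 0.71 CPM in FtICD wing discs against 12.3, 17 and 14.5. In eye-brain complexes it was at 52.1, 56.9 and 47.6 CPM against 78.8 and 79. The wing fall was -4.78 ± 0.21 and the eye-brain effect -0.60 ± 0.18 (adjusted p = 0.086), a difference of 4.18 ± 0.28 (adjusted p = 1.6e-04). The synaptic vesicle gene nSyb, at 262, 273 and 229 CPM in FtICD eye-brain complexes, held 0 counts in FtICD wing discs and 12 in wild-type discs, so its call rests on few wing counts. With voom and library weights the nSyb difference was 3.58 ± 1.12 in place of 5.57 ± 0.89 and was not called (adjusted p = 0.075). Pio, an apical matrix protein, was at 375, 307 and 332 CPM against 566, 743 and 558 in wing discs and differed by 1.25 ± 0.21. Hsp23, a small heat shock protein, was at 359, 238 and 292 CPM against 632, 709 and 691 and differed by 1.16 ± 0.24, and lactate dehydrogenase (Ldh) was at 9.33, 9.01 and 13 CPM against 30.9, 28.6 and 37.7 and differed by 1.89 ± 0.35. Both were lost without wild-type eye-brain replicate 2 (adjusted p = 0.1 and 0.071), and Hsp23 also in the fit to all 19 libraries of the FtICD table (adjusted p = 0.39). Of 18 glycolysis and sugar genes tested 6 were positive (33.3%, against 5.57% of all genes tested) and 0 negative (against 1.99%). Gapdh1 had opposite effects, at 616, 565 and 565 CPM against a mean of 145 ± 77.7 (SD, n = 2) in eye-brain complexes and 193, 86.8 and 58.6 against 480.1, 460.4 and 453 in wing discs, a difference of 4.05 ± 0.64.

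A smaller set rose in eye-brain complexes without passing in wing discs. Gclc, the catalytic subunit of glutathione synthesis, was at 31.7, 30.5 and 30 CPM in FtICD eye-brain complexes against 20.6 and 16.6, and its wing effect of -0.26 ± 0.11 had an adjusted p of 0.14. Its difference was 0.99 ± 0.16 (adjusted p = 0.0058). S6k, the ribosomal S6 kinase of the TOR pathway, was at 166, 182 and 151 CPM against 74.1 and 70.7 and differed by 1.70 ± 0.33, with an adjusted p of 0.058 and 0.083 without wild-type eye-brain replicate 1 or 2. Of 20 antioxidant genes 4 were positive (20%, against 5.57% of all genes tested) and 0 negative. Unlike Gclc, the other positive genes of this list fell in wing discs by the wing test (adjusted p = 0.0016, 0.040 and 0.027).

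Over the 228 negative genes the median level was 3.23 to 3.36 log2 CPM in wild-type wing discs and 4.68 to 4.92 in FtICD discs, values that the choice of the genes in part sets. Ect3 (FBgn0260746, chr3R:11999278-12003516, plus strand), a beta-galactosidase-like gene, was at 22.2, 19 and 25.6 CPM in FtICD wing discs against 0.141, 0 and 0.094. In eye-brain complexes it was at 57.9, 56.8 and 56 CPM against 37.1 and 51.4. The wing groups were far apart and the eye-brain groups differed little, and the difference was -7.64 ± 0.47 (adjusted p = 9.5e-05). Ac3 (FBgn0023416, chr2L:21632587-21647964, plus strand), an adenylyl cyclase, was at 48.9, 46.8 and 52.6 CPM against 5.93, 4.89 and 4.58 in wing discs and at 57.5, 62.8 and 53.1 against 48.7 and 57 in eye-brain complexes, groups that overlapped. FtICD wing discs thus reached about the eye-brain level, with a difference of -3.14 ± 0.18 (adjusted p = 6.6e-05). The gene wry held 222 counts in FtICD wing discs and 2 in wild type, a ratio of 104 (95% exact interval 28.3 to 860, for counting error only). The gene gprs held 39 and 1 counts there, a ratio of 36.4 (interval 6.16 to 1470). Both were at over 20 CPM in every eye-brain library.

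Several of the negative genes work in neurons or their support cells. The acetylcholine receptor subunit nAChRalpha6 was at 1.94, 3.91 and 3.08 CPM in FtICD wing discs against 0.339, 0.168 and 0, and at 58.5, 72 and 47.9 against 132 and 145 in eye-brain complexes. Its difference was -5.50 ± 0.77. Synaptotagmin 1 (Syt1), the calcium sensor of vesicle release, was at 2.01, 2.95 and 3.03 CPM against 0.452, 0.842 and 0.49 in wing discs and differed by -2.49 ± 0.31, and the serotonin receptor 5-HT1A differed by -3.87 ± 0.69. The lipase gene inaE, of photoreceptor signalling, was at 32.5, 31.9 and 28.7 CPM against 20.4, 21.1 and 19.8 in wing discs and differed by -0.74 ± 0.14 (adjusted p = 0.06 without wild-type eye-brain replicate 2). Gs2, a glutamine synthetase of glia, rose in both tissues, to 34.2, 38.3 and 34.6 CPM against 12.9, 13.3 and 14.8 in wing discs and 434, 459.6 and 436 against 321 and 256 in eye-brain complexes. Its difference of -0.76 ± 0.15 was lost without wild-type eye-brain replicate 1 (adjusted p = 0.077) and in the fit to all 19 libraries of the FtICD table (adjusted p = 0.082). Of 50 neuronal and synaptic genes tested 3 were positive and 2 negative (6 and 4%), against 5.57 and 1.99% of all genes tested. The summed level of 7 neuronal markers was 20.3 to 32.7 CPM in FtICD wing discs and 21.0 to 39.2 in wild type. Chinmo (FBgn0086758, chr2L:1651258-1704682, plus strand), a factor of neuronal timing and of progenitor state, was at 125, 165 and 155 CPM in FtICD wing discs against 31.5, 37.9 and 21.4. In eye-brain complexes it was at 463, 548 and 314 against 589 and 683. It rose in wing discs only by the tests, with a difference of -2.82 ± 0.36 (adjusted p = 0.0026). The summed level of 4 neuroblast markers was 56.0 to 73.9 CPM in FtICD wing discs and 35.5 to 45.4 in wild type, and its part in the chinmo value was not tested.

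REPTOR, a transcription factor held back by TOR, was at 42.9, 48.9 and 48.1 CPM in FtICD wing discs against 24.7, 22.2 and 23.6, and at 65.4, 64.7 and 50.9 against 80.6 and 76.8 in eye-brain complexes. Its difference was -1.37 ± 0.16 (adjusted p = 0.0021). The stress factor Atf3 differed by -1.75 ± 0.30, the small heat shock protein Hsp67Bc by -2.94 ± 0.46, the esterase alpha-Est9 by -3.56 ± 0.44 and the adenosine deaminase-related Adgf-D, which overlaps ninaB, by -2.90 ± 0.41. Of 25 heat shock and chaperone genes tested 3 were positive and 1, Hsp67Bc, negative (12 and 4%, against 5.57 and 1.99% of all genes tested). Fat body markers summed to 71.7 to 822 CPM in FtICD wing discs and 29.7 to 90.0 in wild type, and their part in these wing values was not tested.

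The glutathione transferases GstT3 and GstD3, of detoxification, rose in both tissues and by more in wing discs. GstT3 (FBgn0031117, chrX:20467455-20469796, plus strand) was at 37, 34.5 and 31.8 CPM in FtICD wing discs against 2.17, 1.82 and 2.43. In eye-brain complexes it was at 27.2, 25.7 and 20.5 CPM against 9.72 and 9.04. Its effects were 4.0 ± 0.16 in wing and 1.38 ± 0.17 in eye-brain, a difference of -2.62 ± 0.22 (adjusted p = 5.2e-04). GstD3 was at 39.5, 37.5 and 34.3 CPM against 0.056, 0.202 and 0.151 in wing and 13.7, 12.9 and 15.3 against 0.502 and 0.227 in eye-brain. It lies among near-identical GstD copies, so its reads may be split between them, and its difference of -2.82 ± 0.50 had an adjusted p of 0.078 without wild-type eye-brain replicate 1. The serine protease gene ea was at 32.1, 36.1 and 26.1 CPM against 0.876, 0.775 and 0.828 in wing and 11.4, 8.56 and 8.52 against 0.753 and 0.551 in eye-brain, and differed by -1.38 ± 0.30 (adjusted p = 0.022, 0.12 without wild-type eye-brain replicate 1, 0.057 without FtICD wing replicate 2, 0.052 without wild-type wing replicate 2 and 0.22 with voom and library weights). The ionotropic receptor gene Ir76a, which overlaps CG14102, was at 20.9, 18.7 and 20.3 CPM against 0.508, 0.101 and 0.113 in wing and 22.1, 22.4 and 21.3 against 2.35 and 1.75 in eye-brain. Its difference of -2.97 ± 0.60 was lost without wild-type eye-brain replicate 1 or 2 (adjusted p = 0.07 and 0.051). Of 29 glutathione transferases tested 2 were positive (6.9%), GstS1 and GstZ2 at 4.30 ± 0.75 and 1.32 ± 0.25, and 4 negative (13.8%). Over all genes tested the shares were 5.57 and 1.99%. GstS1 was lost without wild-type eye-brain replicate 2 (adjusted p = 0.067) and GstZ2 without replicate 1 (adjusted p = 0.055).

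Cytochrome P450 genes oxidise steroids and foreign compounds. Over all genes tested 2.46% fell and 3.77% rose in eye-brain complexes, and 8.44% fell and 6.49% rose in wing discs. Of 60 cytochrome P450 genes tested, 5 fell and 4 rose in eye-brain complexes, and 3 fell and 12 rose in wing discs. In the tissue difference 5 were negative (8.33%, against 1.99% of all genes tested) and 0 positive (against 5.57%). Of the 5, 3 fell in eye-brain complexes, and Cyp6d4 and Cyp28a5 rose in wing discs, the latter named after its values were seen. Cyp310a1 (FBgn0032693, chr2L:18651058-18653010, minus strand) was at 2.16, 2.81 and 2.28 CPM in FtICD eye-brain complexes against 10.7 and 5.99, and at 28.4, 31.4 and 28.7 against 20.7, 19.5 and 19.5 in wing discs. Its eye-brain effect was -1.78 ± 0.22 and its difference -2.35 ± 0.29 (adjusted p = 0.0026). Cyp313b1 and Cyp9f3 fell by a similar size in eye-brain complexes and differed by -2.11 ± 0.38 and -1.72 ± 0.28, with adjusted p of 0.056 and 0.052 without wild-type eye-brain replicate 2.

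Hippo pathway genes were called at 4.17% positive and 4.17% negative in the Fat and Dachsous list, and 4.35 and 13% among Yorkie targets. Over all genes tested the shares were 5.57 and 1.99%. Of 24 genes of the Fat and Dachsous pathway, yki was positive and ex, a scaffold upstream of the Hippo kinase and a Yorkie target, was negative at -0.52 ± 0.12. The ex gene overlaps crq and was at 73.2, 79.3 and 83.9 CPM against 92.1 and 94.3 in eye-brain complexes and 241, 273 and 234 against 207, 202 and 208 in wing discs. Of 23 Yorkie targets upd2 was positive, with 36, 5, 0 and 37 counts in FtICD and wild-type eye-brain complexes and FtICD and wild-type wing discs, and ex, chinmo and Myc were negative. Myc, a transcription factor that drives growth and ribosome synthesis, was at 286, 289 and 218 CPM against 399 and 463 in eye-brain complexes and 394, 442 and 496 against 407, 421 and 372 in wing discs. Its exons overlap CG12535, and its difference was -0.85 ± 0.19 (adjusted p = 0.027). The calls of ex and Myc were lost without wild-type eye-brain replicate 2 (adjusted p = 0.12 and 0.14). Myc was also lost without FtICD wing replicate 2 or 3 or wild-type wing replicate 3 (adjusted p = 0.062, 0.055 and 0.062). With libraries left out, the call of ex was kept only without FtICD wing replicate 1 or 3 or FtICD eye-brain replicate 3, and its adjusted p was 0.054 to 0.12 without each other library. It was also lost with no filter on low counts (0.062), under the replicate block (0.062) and with the low wild-type eye-brain genes left out (0.071), each an adjusted p. The replicate block ended the call of Myc as well (adjusted p = 0.058). None of 15 planar polarity genes was called by edgeR's test. Of 51 cell cycle genes 2 were positive and 2 negative (3.92% each, against 5.57 and 1.99% of all genes tested). Among the positive ones borr, of the chromosomal passenger complex, was at 5.62 ± 0.86.

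**Figure D4:**
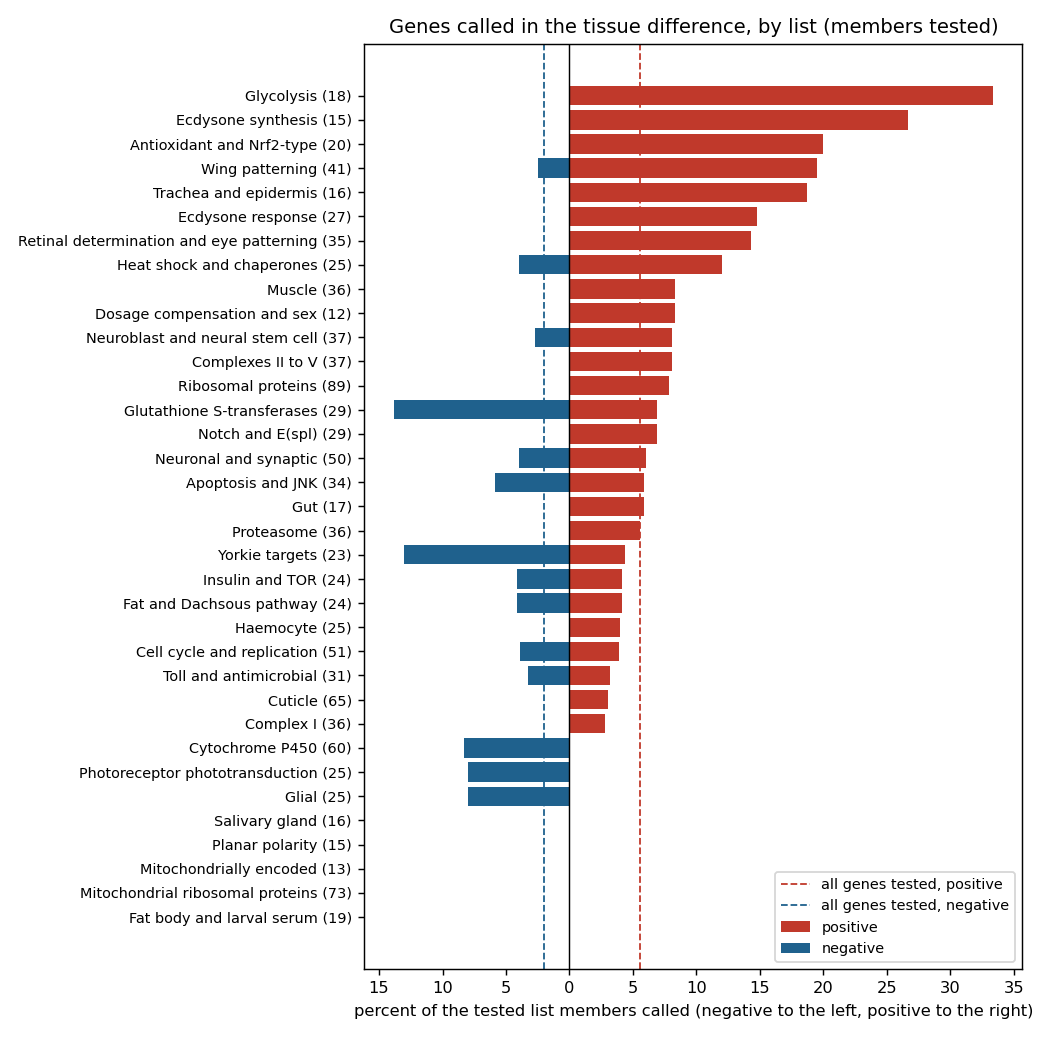
Percent of tested members of each gene list called positive (red, to the right) or negative (blue, to the left) in the tissue difference, with the number tested in brackets. Dashed lines mark the shares over all genes tested, 5.57 and 1.99%. Glycolysis reaches 33.3% positive, while cytochrome P450 genes are called in the negative direction alone.

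Levels of w and Hsc70-2 differed between the stocks. White (w), mutated in w1118 and often used as a transgene marker, was at 192, 201 and 153 CPM in FtICD eye-brain complexes and 238, 216 and 165 CPM in FtICD wing discs. Wild-type wing discs held 2 counts of w in all, but the wild-type eye-brain libraries were at 7.84 and 2.33 CPM, 322 counts. With all libraries scaled together, w1118 eye-brain complexes of the ft null set were at 0.293, 0.0335 and 0.144 CPM. The w1118 embryos of the FtICD table were at 12.4 to 23 CPM on that scale, so w counts in w1118 were not peculiar to eye-brain complexes. The called difference of w was -8.15 ± 0.93. Hsc70-2, a heat shock cognate, was at 40.1 and 36.9 CPM in wild-type eye-brain complexes and 34.4, 35.5 and 38.8 CPM in wild-type wing discs. It held 77 counts in FtICD eye-brain libraries and 0 in FtICD wing discs, at least 1550-fold below wild type. In the ft null set it was at 0.179, 0.075 and 0.193 CPM in ft null and 39.7, 68.9 and 41.5 CPM in w1118, so it was low in both genotypes that are not w1118. Some other genes moved the same way in FtICD and ft null eye-brain complexes. In the ft null set ea was at 19.7, 21.7 and 19 CPM in ft null against 1.33, 0.92 and 0.804 in w1118. GstT3 was at 22.4, 21.9 and 20.2 CPM against 6.26, 7.78 and 5.1. Others did not: dock was at 305, 326 and 334 CPM against 401, 366 and 396, and Gclc at 42.9, 43.9 and 44.1 against 41.3, 46.4 and 34. The FtICD domain and the stock background cannot be told apart for any gene here.

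Both tissues shared 238 further changes by both tests in the same direction, 122 higher and 116 lower, without a called difference. The photolyase gene phr was at 123, 115.2 and 108 CPM against 40.1 and 36 in eye-brain complexes and 158, 137 and 156 against 57.6, 49.2 and 57.9 in wing discs, a difference of 0.14 ± 0.14. Coro, an actin regulator, rose by 0.88 ± 0.07 and 0.88 ± 0.06, and IntS12, of the Integrator complex, by 1.33 ± 0.11 and 1.30 ± 0.09. Osbp, a lipid transfer protein whose exons overlap CG11771, was at 8.68, 7.86 and 6.8 CPM against 51.2 and 45.4 and 6.09, 8.1 and 5.58 against 62.1, 61.5 and 68.5, the deacetylase Sirt2 at 22.7, 24.6 and 17.8 against 75.2 and 85.2 and 21.8, 16.9 and 17.1 against 55.7, 61.4 and 65.6. Their differences were 0.65 ± 0.22 and -0.17 ± 0.22 (adjusted p = 0.12 and 0.69). A missed threshold does not show equal effects.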

How the data were processed

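RNA-seq libraries of 4 groups were compared. Per the labels' protocols, cDNA came from 10 ng of RNA (RIN above 8) by a SMARTer Ultra Low kit, followed by 12 to 15 cycles of amplification and paired reads of 150 bases. That kit as named does not keep strand, so counts of genes with overlapping exons (50 bases or more) cannot be fully told apart. The authors deposited estimated counts per gene in 2 tables. In the 11 libraries, 31.6% of the nonzero values were not whole (tolerance 1e-06), and all values were rounded. Salmon 1.80, Trimmomatic 0.33, FastQC 0.10 and edgeR are listed, with dm6 and no settings, per the submitters' processing notes. The sample labels name the groups, and coordinates and symbols are from Ensembl release 115 of BDGP6.54 (dm6).

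One mean per group was fitted with edgeR 4.0.16 in R 4.3.3 (filterByExpr, minimum count 10, TMM, two-sided quasi-likelihood F test, Benjamini-Hochberg over all genes tested). The biological coefficient of variation was 29.4%, and 20.8% without FtICD eye-brain replicate 3. Genes with 3 or fewer counts in a group are given by counts. Alternatives used DESeq2 1.42.0, limma 3.58.1 and the settings named in the closing section. The procedure was also run on simulated data with the same variation in every gene and no outlying library, a simpler setting than these data.

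The groups, gene lists and rule for named genes were chosen with earlier results of these data known. The rule always named ft, w, roX1, roX2 and Hsc70-4. It then took the 12 highest and 12 lowest differences above a mean of 5 CPM that were called with and without FtICD eye-brain replicate 3, up to 4 called genes per list, genes with few counts, genes of opposite sign and genes of shared sign, 133 in all. The 78 named here were picked from the 133 after their values and the stability of their calls were seen, so they hold more stable calls than the rule's full set.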

Additional observations from a re-analysis of the deposited data

Results flagged for a closer look

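The FtICD effect differed between the tissues for 865 genes by the test of the difference itself, which is what marks the results below for a closer look. Each value is the eye-brain effect minus the wing effect on the log2 scale.

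Among the positive genes named, the differences were 11.07 for Hr3, 9.38 for UQCR-C2, 8.11 for Rab27, 7.58 for Hsc70-2, 6.75 for ND-18, 6.64 for UQCR-C1, 6.21 for Top3beta and 6.17 for yki. They were 6.17 for eIF3a, 6.13 for RpL18, 5.62 for borr, 5.57 for nSyb, 5.51 for betaTub97EF, 4.36 for Pcyt1, 4.30 for GstS1 and 4.21 for RpL4. Further values were 4.18 for nab, 4.18 for SK, 4.17 for ImpE2, 4.05 for Gapdh1, 3.68 for usp, 3.36 for mib1, 3.11 for dock and 3.10 for Cka. Next came 3.06 for h, 2.94 for RpLP1, 2.81 for nub, 2.79 for gukh, 2.68 for ara, 2.68 for inv, 2.58 for ttk and 2.57 for ush. Then followed 2.50 for ImpE1, 2.46 for mof, 2.40 for Ptth, 2.32 for rin, 1.89 for Ldh, 1.70 for S6k, 1.37 for HIP and 1.32 for GstZ2. Last were 1.25 for pio, 1.16 for Hsp23 and 0.99 for Gclc.

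Among the negative genes named, the differences were -8.15 for w, -7.64 for Ect3, -6.46 for wry, -5.52 for gprs, -5.50 for nAChRalpha6, -3.87 for 5-HT1A, -3.56 for alpha-Est9 and -3.14 for Ac3. These were followed by -2.97 for Ir76a, -2.94 for Hsp67Bc, -2.90 for Adgf-D, -2.82 for chinmo, -2.82 for GstD3, -2.62 for GstT3, -2.49 for Syt1 and -2.35 for Cyp310a1. Smaller in size were -2.11 for Cyp313b1, -1.75 for Atf3, -1.72 for Cyp9f3, -1.38 for ea, -1.37 for REPTOR, -0.85 for Myc, -0.76 for Gs2 and -0.74 for inaE. Smallest in size was -0.52 for ex. Values of Hr3, Hsc70-2, nSyb, w, wry and gprs are fitted with 3 or fewer counts in a group and depend on the prior count.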

How the results depend on the processing

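The count of 865 genes (637 positive, 228 negative) ranged from 326 to 973 when each library was left out in turn, with 225 to 737 positive and 101 to 275 negative. The eye-brain count of 712 ranged from 95 to 863 and the wing count of 1708 from 1093 to 2145. The eye-brain count was 315 without FtICD replicate 1, and 148 and 95 without wild-type replicate 1 and 2. The wing count was 1093 without FtICD replicate 2 and 1097 without wild-type replicate 2. DESeq2 called 1579 genes (1016 positive, 563 negative) and 1639 in eye-brain complexes. Voom with library weights called 406 negative genes and 1757 in eye-brain complexes. A fit to all 19 libraries of the FtICD table called 1526 (1040 positive, 486 negative) and 1725 in eye-brain complexes. With the low genes of the wild-type eye-brain libraries left out, 563 were called, 359 of them positive. The cause of these shifts was not tested. Another normalization (RLE), no filter, a minimum count of 50 and leaving out ribosomal RNA kept every count within 1.5 times. 

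Replicate numbers were shared by 15 pairs of libraries, whose deviations correlated at -0.125 to 0.29, over 0.1 in 4 pairs. With 2 or 3 libraries per group, these values cannot show whether libraries of the same number were handled together. The replicate block gave 684 genes (539 positive, 145 negative) and 428 in eye-brain complexes, and ended the calls of ex and Myc among others.

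Of the 133 genes the rule named, 111 were called, and 45 of these kept the call under every setting; of the 78 named in the text, 68 were called and 41 kept it. Leaving out wild-type eye-brain replicate 2 lost 57 of the calls and replicate 1 lost 38. No called gene changed sign. Sign changed for 7 uncalled ones: coro, IntS12, Lsd-2, Lsp2, Sgs3, Sgs7 and His-Psi:CR33867. Coro lay at -0.00861 with RLE, -0.00635 with no filter, -0.00871 with DESeq2, -0.0114 with all 19 libraries and -0.00686 with the replicate block, and ran from -0.0639 to 0.0279 with each library left out. IntS12 ran from -0.0444 to 0.0698 there. Lsp2, Sgs3 and Sgs7, of the fat body and salivary gland, lay at -5.81, -0.227 and -0.354 without FtICD eye-brain replicate 3.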
